A study of Homo sapiens with 17 samples.

Results

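The 44 genes described here encode the degrading machinery of the lysosome: 23 soluble enzymes, 2 lumenal helper proteins, 6 membrane proteins, 9 proteins of the proton pump, and 4 regulators and sorting receptors. They were taken from a list of gene symbols whose rule sets no threshold on a measured value, although the list was drawn up with earlier results of these data known. They are 44 of the 57638 genes to which transcripts of the deposited tables could be matched, of which 27043 had reads. Their messenger RNA was followed across 17 libraries of K562, a human cell line from a chronic myeloid leukaemia that can express erythroid genes. In the comparisons of all 17 libraries, no lysosomal gene passed the test for a difference between the libraries labelled GOLGA8N or LAPTM4B and the others. The gene that came nearest was CTSL, the protease cathepsin L, which was high in 2 of the 3 GOLGA8N-labelled libraries. It passed the test when only labels without a number prefix were compared, which leaves out the low GOLGA8N-labelled library. That call was lost on leaving out any of several single libraries.

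The lysosome is the acidic compartment in which cells break down proteins, glycans, lipids and nucleic acids delivered by endocytosis and autophagy. Most of its soluble enzymes are tagged with mannose 6-phosphate in the Golgi apparatus and carried by sorting receptors towards endosomes, while a rotary ATPase pumps protons inward and so keeps the enzymes active. Many of these genes can be driven together by the transcription factors TFEB and TFE3, which bind a short motif in their promoters. Antisense oligonucleotides enter cells by endocytosis and can be held in endosomes and lysosomes, so the compartment lies on their route.

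Per the labels, the cells of every library, controls included, had received CRISPR plasmids by electroporation. Where a label names a gene, the plasmids were meant to switch it on. All cells had later been exposed to an antisense oligonucleotide, with processing on day 6. Golgins encoded by GOLGA8 genes, proteins of the Golgi, are tied by the series title to how much of such an oligonucleotide enters cells and acts there. The libraries labelled GOLGA8N were GOLGA8N 1, GOLGA8N 2 and 23-GOLGA8N, and those labelled LAPTM4B, which encodes a lysosomal membrane protein, were LAPTM4B 1, LAPTM4B 2 and 22-LAPTM4B. The 11 other libraries were labelled TTR, TRPC5OS, ADORA2A, UBE2V1, COL6A6, 20-ARSF, 21-CTPS2, E7, RFP, GFP and Neg, and they are called the other libraries here. No human gene is named by GFP, RFP and Neg. No label explains E7, the number prefixes or the numbers 1 and 2, names the oligonucleotide or the guides, or states that libraries came from separate cultures. The p-values therefore reflect nothing beyond library-to-library spread, and that spread may be technical. Each label among the 11 other libraries has a single library. Their spread therefore also includes any difference between their plasmids or between prefixed and unprefixed labels.

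Sequencing depth had a median of 3222049 estimated reads. The shallowest library was GFP with 569057 reads, followed by 23-GOLGA8N with 2252097, and the deepest was 20-ARSF with 4236396. Levels are given in CPM, gene counts scaled to the same library total, in which 3 reads were worth 5.45 CPM for GFP but 0.733 CPM for 20-ARSF. The GFP library was unlike the rest, with Spearman correlations across genes of 0.776 to 0.798 with each of the other libraries, against 0.857 to 0.922 among those. It gave the lowest value of 7 and the highest value of 6 of the 42 lysosomal genes tested. GOLGA8N messenger RNA was at 0.318 CPM in 23-GOLGA8N and at or near 0 in GOLGA8N 1 and GOLGA8N 2, against at most 0.249 CPM in any other library. These values all lie under 3 reads. LAPTM4B had 179 CPM in LAPTM4B 1, 222 CPM in LAPTM4B 2 and 166 CPM in 22-LAPTM4B, against 160 to 306 CPM with a median of 234 CPM in the other libraries. For GOLGA8N, counts this low cannot show whether the gene was switched on. A higher level of LAPTM4B was not detectable in the libraries that name it.

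The labels call the cells lymphoblasts. All 12 erythroid markers had reads, with summed CPM of 7089.15 to 10945.86 in GOLGA8N-labelled, 7659.43 to 9774.39 in LAPTM4B-labelled and 6170.17 to 12075.31 in the other libraries. B lymphoid markers summed to at most 4.16, 3.18 and 5.62 CPM in the same 3 sets, with CD79B, MS4A1 and VPREB1 at 0. T lymphoid markers summed to 63.12 to 123 CPM in GOLGA8N-labelled, 52.41 to 91.98 CPM in LAPTM4B-labelled and 38.57 to 106.01 CPM in the other libraries, with CD2, CD3E and CD8A at 0. Of the macrophage markers, whose cells are rich in lysosomes, CD163 and MRC1 were at 0 and the sum was 11.04 to 17.43 CPM in GOLGA8N-labelled, 10.02 to 19.9 CPM in LAPTM4B-labelled and 8.37 to 35.46 CPM in the other libraries. Of 6 fibroblast markers LUM and PDGFRB were at 0, and the sum was 20.69 to 47.75 CPM in GOLGA8N-labelled, 29.5 to 55.26 CPM in LAPTM4B-labelled and 35.94 to 64.27 CPM in the other libraries. The ranges of the 3 sets overlapped in every marker list.

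The promoters of lysosomal genes are known for the E-box CACGTG and for its extended form in the lysosomal gene network, in which GT precedes CACGTG and AC follows it. RefSeq promoter sequences (GRCh38.p14, 250 bases before to 50 bases after each listed start) were matched by symbol to 33 of the 44 genes, and the motifs were searched on both strands. They are palindromes, and every longer match also contains the shorter one. CACGTG was found in 12 of the 33 (36.36%), against 8.775% of all 27305 genes in the table. Its extension TCACGTGA was found in 7 (21.21%) against 1.176%, and the form with GT before and AC after in 4 (12.12%) against 0.4212%. A gene was counted if any of its listed starts matched. With only the first listed start, CACGTG was found in 10 of the 33, against 7.435% of all genes. That background was not limited by gene type. A match is a description of letters and not evidence of binding. The following 30-base stretches are printed because they show the motif in soluble enzymes, membrane proteins, the proton pump and a sorting receptor. CACGTG is in capitals, each is read 5′ to 3′ on the strand of its gene, and lower-case letters on both sides show how far the longer form extends.
CTSD, protease, chr11:1763957-1763986, minus strand: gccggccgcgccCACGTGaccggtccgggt
CTSA, protease and enzyme-protecting protein, chr20:45891298-45891327, plus strand: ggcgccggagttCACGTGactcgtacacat
GALNS, sulfatase, chr16:88857104-88857133, minus strand: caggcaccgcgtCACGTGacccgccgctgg
GAA, acid glucosidase, chr17:80101538-80101567, plus strand: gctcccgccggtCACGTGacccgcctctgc
LAMP1, membrane glycoprotein, chr13:113297199-113297228, plus strand: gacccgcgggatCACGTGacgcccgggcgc
MCOLN1, calcium channel, chr19:7522598-7522627, plus strand: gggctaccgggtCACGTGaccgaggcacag
ATP6V0D1, proton pump subunit, chr16:67481199-67481228, minus strand: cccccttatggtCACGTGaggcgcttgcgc
IGF2R, sorting receptor, chr6:159969042-159969071, plus strand: ccgggcggctgtCACGTGacgcggttccgg
LAMP1 held 6 matches to CACGTG in its promoter, IGF2R 3, and CTSA, GAA, GALNS and MCOLN1 2 each. ARSB, ATP6V0D1, CD63, CTSD, M6PR and NEU1 held 1 each. Genes with and without the motif are set side by side at the end of the comparisons with the other libraries.

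The lysosomal genes together took 0.406% of the reads in TRPC5OS, the lowest, to 0.488% in GOLGA8N 1, the highest. Their summed level averaged 4666 ± 268 CPM in GOLGA8N-labelled libraries and 4441 ± 46.7 CPM in LAPTM4B-labelled libraries (SD, n = 3 each), against 4445 ± 203 CPM in the other libraries (SD, n = 11). The individual sums were 4879.8, 4751.7 and 4365.6 CPM in libraries GOLGA8N 1, GOLGA8N 2 and 23-GOLGA8N, and 4387.2 to 4471.1 CPM in LAPTM4B-labelled libraries, against 4060.1 to 4735.3 CPM in the others. GOLGA8N 1 and GOLGA8N 2 lay just above every other library and 23-GOLGA8N within their range. A few genes weigh heavily in the sum. Over all 17 libraries CD63 averaged 975.4 CPM and PSAP 825.4 CPM, of a mean sum of 4483.44 CPM. The coefficient of variation of this sum over all 17 libraries was 4.6%. In these bulk profiles fewer cells with a transcript and less of it per cell cannot be told apart.

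The sums of each functional class also overlapped. Most of the helper sum is PSAP (825.4 of 890.81 CPM on average over all 17 libraries). Most of the membrane sum is CD63 (975.4 of 1236.28 CPM). Soluble enzymes averaged 1240.9 ± 162.68 CPM in GOLGA8N-labelled and 1201 ± 93.79 CPM in LAPTM4B-labelled libraries, against 1223.01 ± 57.79 CPM in the others. The helper proteins PSAP and NPC2 summed to 961.47 ± 85.06 CPM in GOLGA8N-labelled and 886.47 ± 181.14 CPM in LAPTM4B-labelled libraries, against 872.72 ± 80.24 CPM in the others. Membrane proteins stood at 1303.23 ± 186.42 CPM in GOLGA8N-labelled and 1219.9 ± 61.7 CPM in LAPTM4B-labelled libraries, against 1222.49 ± 127.47 CPM in the others. The plot of class sums shows that single libraries of the 3 sets overlap in each of these classes. The proton pump summed to 1016.7 ± 64.15 CPM in GOLGA8N-labelled and 987.7 ± 85.68 CPM in LAPTM4B-labelled libraries, against 993.82 ± 84.49 CPM in the others. Regulators and sorting receptors summed to 143.4 ± 24.32 CPM in GOLGA8N-labelled and 145.97 ± 18.07 CPM in LAPTM4B-labelled libraries, against 133.24 ± 22.95 CPM in the others.

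**Figure D1:**
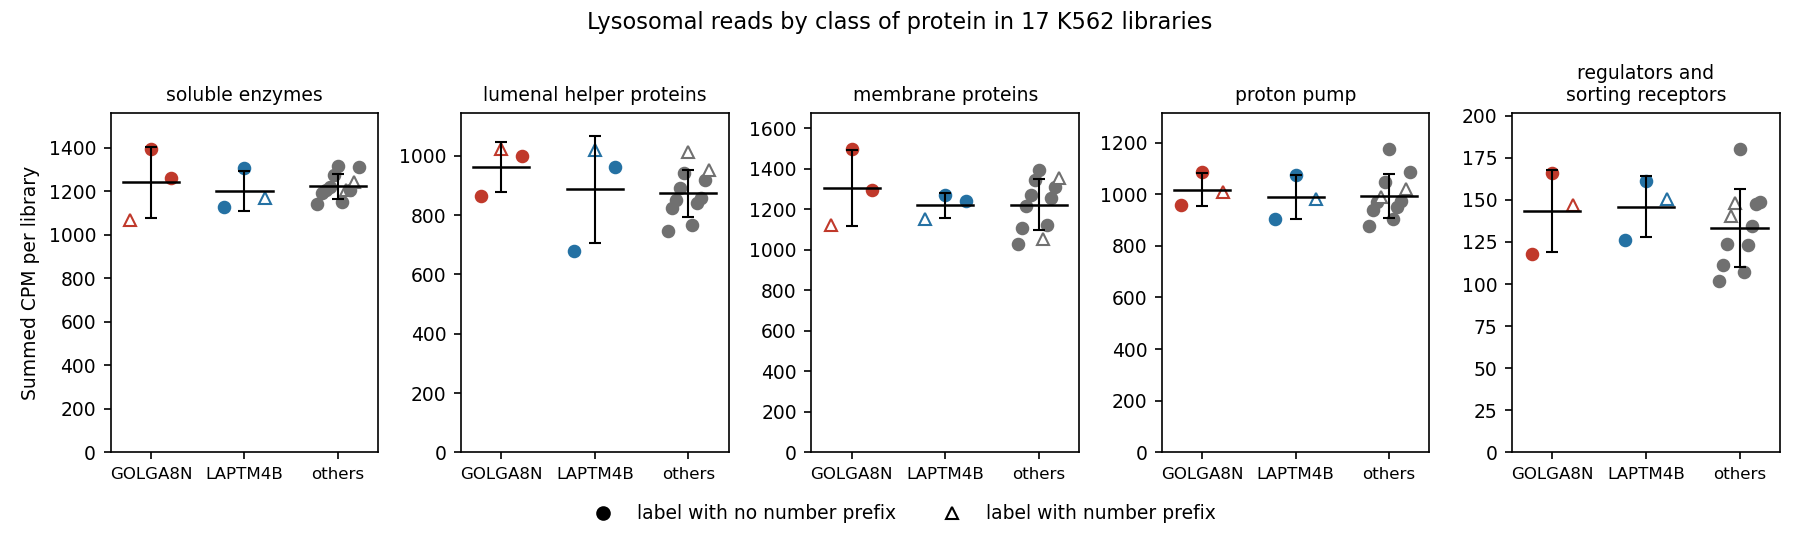
Summed CPM of each functional class per library, for the GOLGA8N-labelled, LAPTM4B-labelled and other libraries; circles are unprefixed labels, open triangles prefixed labels, and bars the mean ± SD. The sets overlap in every class: proton pump sums average 1016.7 CPM in GOLGA8N-labelled, 987.7 CPM in LAPTM4B-labelled and 993.82 CPM in the other libraries.

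The first comparison asked whether lysosomal genes differed between the GOLGA8N-labelled and the other libraries. Of the 44 genes, 42 passed the filter on low counts. NEU1, a sialidase, and LIPA, the acid lipase, did not, with 15.6 and 22.1 reads over all libraries. With edgeR's quasi-likelihood test and Benjamini-Hochberg adjustment at a threshold of 0.05, 0 of the 42 passed, against 3 of 13133 genes tested (0.0228%). DESeq2 and limma-voom also called 0. One of the 42, CTSL, had an unadjusted p under 0.05, as did 475 of all genes tested (3.62%). The fitted log2 difference was above 0 for 24 and below 0 for 18 of the 42, with a median of 0.04 against -0.02 for all genes tested, and it ran from -1.26 to 0.67. None of the 42 separated the GOLGA8N-labelled libraries from all others, which 0.426% of all genes did. For 30 of the 42 the interval of 2 standard errors around the log2 difference stayed within -1 and 1, so for these genes a change of 2-fold lies outside the interval.

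The second comparison set the LAPTM4B-labelled libraries against the others, which are the same 11 libraries as in the first. Again 0 of 42 genes passed edgeR's test, as did 0 of all 13133 genes (0.0%), and DESeq2 and limma-voom called 0 of the lysosomal genes. IDS and CTSB had an unadjusted p under 0.05, as did 221 of all genes tested (1.68%). In the fit the log2 difference was above 0 for 22 and below 0 for 20, with a median of 0.03 against 0.01 for all genes, and it ran from -1.72 to 0.89. None of the 42 separated the sets, against 0.244% of all genes. The interval of 2 standard errors stayed within -1 and 1 for 28 of the 42.

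**Figure D2:**
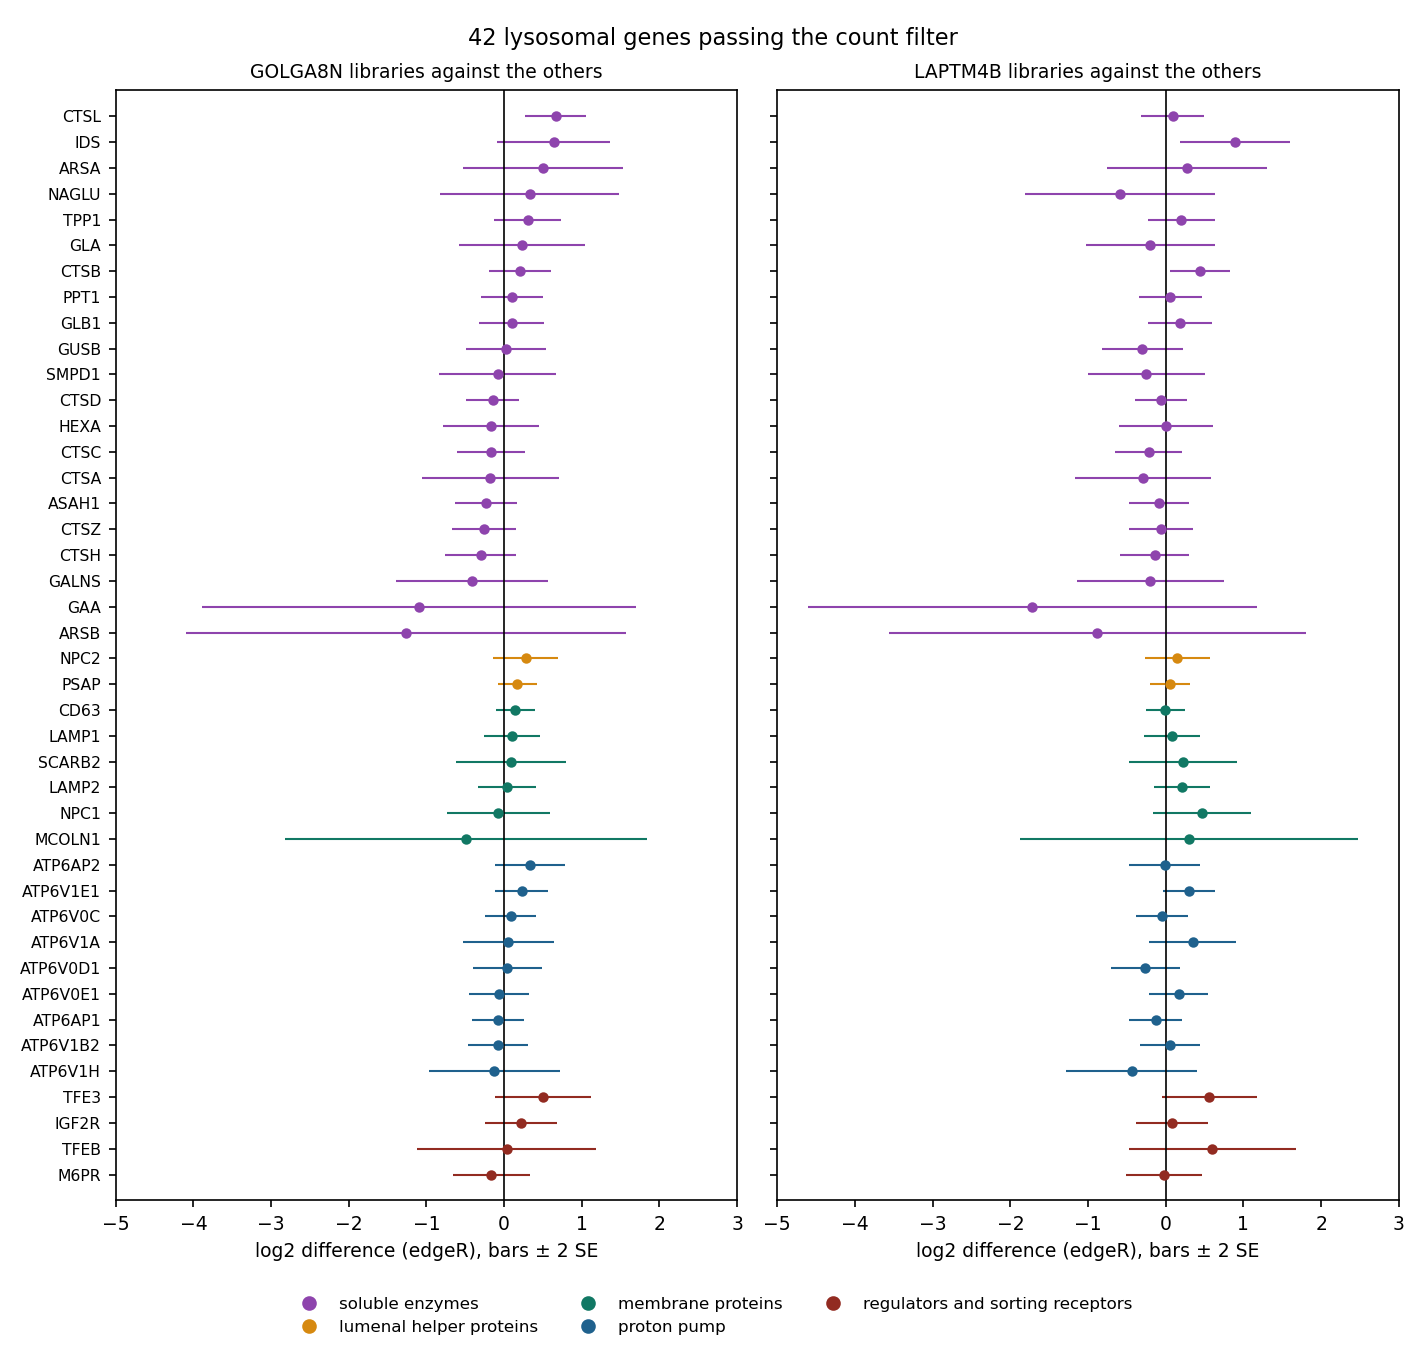
The log2 difference of each tested lysosomal gene, GOLGA8N-labelled minus other and LAPTM4B-labelled minus other libraries, grouped by class, with bars of 2 standard errors of the edgeR fit. Most genes sit near 0, with medians of 0.04 and 0.03, and the widest bars belong to the sparsely counted GAA, ARSB and MCOLN1.

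Among the soluble enzymes, 10 of 21 tested genes were above 0 in GOLGA8N-labelled libraries (median log2 difference -0.08) and 8 of 21 in LAPTM4B-labelled libraries (median -0.09). CTSL, a cysteine protease that cuts proteins in the acidic lumen (ENSG00000135047, chromosome 9, 87725519 to 87731393, plus strand, GRCh38), was the gene furthest from 0 relative to its error. It had 245 CPM in GOLGA8N 1, 320 CPM in GOLGA8N 2 and 145 CPM in 23-GOLGA8N, and 114, 168 and 194 CPM in LAPTM4B 1, LAPTM4B 2 and 22-LAPTM4B, against 89.9 to 216 CPM with a median of 145 CPM in the other libraries. GOLGA8N 1 and GOLGA8N 2 were above every other library of the series, and 23-GOLGA8N was at the median of the others. The log2 difference was 0.67 ± 0.197 (SE) for GOLGA8N-labelled libraries, with an unadjusted p of 0.00196 and an edgeR adjusted p of 0.9998. It was 0.09 ± 0.204 for LAPTM4B-labelled libraries. Of the reads given to CTSL, 92.7% were assigned to the transcript CTSL-206 and 7.26% to CTSL-203.

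The 3 GOLGA8N-labelled libraries differed among themselves in CTSL, and the low one was the sole prefixed one. In the fit of unprefixed labels only, with GOLGA8N 1 and GOLGA8N 2 against 9 other libraries, CTSL rose by 1.02 ± 0.195 on the log2 scale, with an edgeR adjusted p of 0.0227, and was the sole lysosomal gene called, where 6 of 13960 genes were called (0.043%). The 9 unprefixed other libraries averaged 146 ± 38.8 CPM of CTSL (SD) and ran from 89.9 to 216 CPM, the top value being that of GFP. Among the 4 prefixed labels the order was different: 145 CPM in 23-GOLGA8N stood below 194 CPM in 22-LAPTM4B, 192 CPM in 20-ARSF and 200.4 CPM in 21-CTPS2. A fit of label by prefix, chosen after seeing the data, gave -0.41 ± 0.328 within prefixed labels. The difference between that effect and the unprefixed one was -1.42 ± 0.392 on the log2 scale (unadjusted p 0.000955, edgeR adjusted p 0.724). It did not pass, and its prefixed side rests on 1 GOLGA8N-labelled library, so that library and the prefix cannot be told apart. The unprefixed call depended on single libraries. It was lost without GOLGA8N 1 (1.18, edgeR adjusted p 0.0835), without GOLGA8N 2 (0.83, adjusted p 0.987), without RFP (0.99, adjusted p 0.0659), without ADORA2A (0.99, adjusted p 0.0548), and with only Neg, GFP and RFP as the comparison (0.82, adjusted p 0.422).

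**Figure D3:**
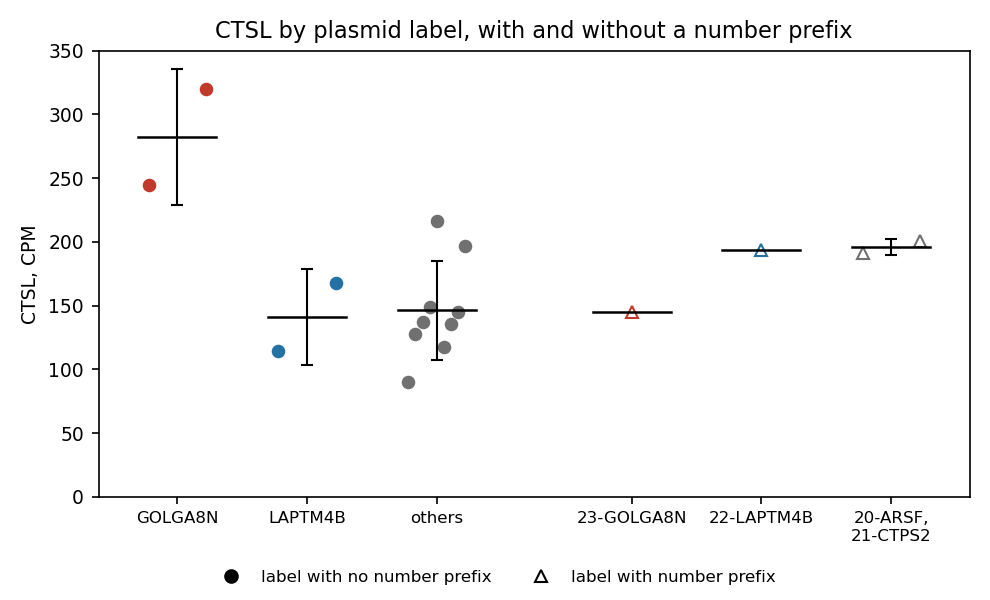
CTSL level in CPM in each of the 17 libraries, grouped by prefix and label set; circles are unprefixed and open triangles prefixed labels, and lines the mean ± SD where a set holds more than 1 library. GOLGA8N 1 and GOLGA8N 2, at 245 and 320 CPM, lie above all other libraries, and 23-GOLGA8N, at 145 CPM, lies at the median of the others.

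IDS, the sulfatase that removes sulfate from iduronate in heparan and dermatan sulfate (ENSG00000010404, chromosome X, 149476990 to 149521096, minus strand, GRCh38), had log2 differences above 0 for both labels without passing the test. It had 24.2, 28 and 12.1 CPM in libraries GOLGA8N 1, GOLGA8N 2 and 23-GOLGA8N, and 23.1, 20.8 and 32.4 CPM in LAPTM4B 1, LAPTM4B 2 and 22-LAPTM4B, against 4.58 to 21.7 CPM with a median of 15.8 CPM in the others. In each set 2 of 3 libraries exceeded the highest other library, RFP, and 1 lay within the range. The fitted log2 difference was 0.89 ± 0.353 for LAPTM4B-labelled libraries (unadjusted p 0.0163, edgeR adjusted p 0.9999) and 0.64 ± 0.364 for GOLGA8N-labelled libraries (unadjusted p 0.0874), the second being 0.41 without GOLGA8N 2. Among unprefixed labels, IDS and CTSL were the 2 lysosomal genes whose GOLGA8N-labelled libraries both exceeded all 9 others, as 1.53% of all genes did. CTSB was the sole one for the LAPTM4B label, where the background was 1.33%.

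CTSB, the cysteine protease cathepsin B, had 88.8, 96.6 and 52.5 CPM in libraries GOLGA8N 1, GOLGA8N 2 and 23-GOLGA8N, and 92.2, 112 and 78.3 CPM in LAPTM4B 1, LAPTM4B 2 and 22-LAPTM4B, against 47.4 to 89.9 CPM with a median of 69.7 CPM in the others. The LAPTM4B-labelled libraries thus sat in or above the upper part of that range, and 23-GOLGA8N near its bottom. In the fit the log2 difference was 0.44 ± 0.195 for LAPTM4B-labelled (unadjusted p 0.0295, edgeR adjusted p 0.9999) and 0.20 ± 0.20 for GOLGA8N-labelled libraries. CTSD, the aspartic protease cathepsin D, had 142, 208 and 125 CPM in libraries GOLGA8N 1, GOLGA8N 2 and 23-GOLGA8N, and 151, 162 and 190 CPM in LAPTM4B 1, LAPTM4B 2 and 22-LAPTM4B, against 147 to 210 CPM with a median of 179 CPM in the others. Its lowest value in the series was that of 23-GOLGA8N. Its log2 differences were -0.15 ± 0.169 for GOLGA8N-labelled and -0.06 ± 0.167 for LAPTM4B-labelled libraries.

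The remaining cathepsins gave ranges that overlapped in every set. CTSC, a dipeptidyl peptidase that activates other proteases, ran from 43.2 to 59.7 CPM in GOLGA8N-labelled and 39.6 to 58.7 CPM in LAPTM4B-labelled libraries, against 42.1 to 85.3 CPM in the others. CTSH, an aminopeptidase, ran from 55.9 to 107 CPM in GOLGA8N-labelled and 78.8 to 96.2 CPM in LAPTM4B-labelled libraries, against 58.4 to 149 CPM in the others. CTSA, a carboxypeptidase that also protects other lysosomal enzymes, ran from 22.9 to 56.6 CPM in GOLGA8N-labelled and 22.7 to 47 CPM in LAPTM4B-labelled libraries, against 1.82 to 72.6 CPM in the others. The low end of CTSA was the GFP library alone, with 1 read, and the lowest of the remaining 16 libraries had 22.7 CPM. CTSZ, a carboxypeptidase, is described with the label prefix.

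The enzymes that take apart glycolipids and glycans also overlapped between the sets, and none passed the test. HEXA, a subunit of hexosaminidase that cleaves GM2 ganglioside, ran from 27.9 to 52 CPM in GOLGA8N-labelled and 30.4 to 53.8 CPM in LAPTM4B-labelled libraries, against 10.9 to 67.9 CPM in the others, where 10.9 CPM was GFP with 6 reads. GLB1, the acid galactosidase, ran from 55.6 to 78.2 CPM in GOLGA8N-labelled and 60.2 to 81.3 CPM in LAPTM4B-labelled libraries, against 44.3 to 81.9 CPM in the others. GLA, the alpha-galactosidase lacking in Fabry disease, ran from 9.2 to 22.9 CPM in GOLGA8N-labelled and 9.83 to 17.2 CPM in LAPTM4B-labelled libraries, against 7.63 to 30.9 CPM in the others. All of these sets overlapped. GUSB, the glucuronidase, ran from 35.5 to 63.9 CPM in GOLGA8N-labelled and 31.2 to 49 CPM in LAPTM4B-labelled libraries, against 29.1 to 75.5 CPM in the others. GALNS, a sulfatase for keratan and chondroitin sulfate, ran from 6.07 to 10.6 CPM in GOLGA8N-labelled and 5.44 to 19.3 CPM in LAPTM4B-labelled libraries, against 6.11 to 21.3 CPM in the others. ARSA, an enzyme for sulfatide, and NAGLU, an enzyme for heparan sulfate, were tested at low level and spanned 0 to 17.2 CPM and 1.44 to 15.2 CPM over all libraries. GAA, which digests glycogen, and ARSB, a sulfatase for dermatan sulfate, reached 11.3 CPM in RFP and 10.1 CPM in Neg and were at 0 in 2 and 4 libraries. Their standard errors of 1.40 and 1.41 for GOLGA8N-labelled libraries leave a change of several-fold in either direction undetectable at this depth.

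The remaining enzymes, for lipids and lipid-linked or small peptides, overlapped between the sets as well. ASAH1, the acid ceramidase, had 46.2 to 54.7 CPM in GOLGA8N-labelled and 51.8 to 59.7 CPM in LAPTM4B-labelled libraries, against 47.9 to 77.4 CPM in the others. SMPD1, the acid sphingomyelinase, had 13.8 to 15.2 CPM in GOLGA8N-labelled and 11.5 to 13.8 CPM in LAPTM4B-labelled libraries, against 7.21 to 25.7 CPM in the others. TPP1, a tripeptidyl peptidase, had 52.1 to 82.1 CPM in GOLGA8N-labelled and 53.8 to 79.8 CPM in LAPTM4B-labelled libraries, against 39.9 to 105 CPM in the others. PPT1, which removes fatty acids from proteins, had 102 to 132 CPM in GOLGA8N-labelled and 80.7 to 142 CPM in LAPTM4B-labelled libraries, against 69.1 to 184 CPM in the others. In TPP1, PPT1 and ASAH1 the highest library was GFP.

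Both helper proteins were above 0 in both label sets without passing the test, except that NPC2 in LAPTM4B-labelled libraries was at -0.09 without 22-LAPTM4B and at -0.12 with unprefixed labels only (median log2 difference 0.22 for GOLGA8N-labelled and 0.10 for LAPTM4B-labelled libraries). PSAP is cut into the saposins, which present sphingolipids to their enzymes (chromosome 10, 71816298 to 71851375, minus strand, GRCh38). It had 903, 793 and 967 CPM in libraries GOLGA8N 1, GOLGA8N 2 and 23-GOLGA8N, and 898, 627 and 932 CPM in LAPTM4B 1, LAPTM4B 2 and 22-LAPTM4B, against 688 to 954 CPM with a median of 807 CPM in the others. The lowest and the highest library of the series, LAPTM4B 2 and 23-GOLGA8N, were thus both labelled libraries. Its log2 differences were 0.17 ± 0.127 for GOLGA8N-labelled and 0.06 ± 0.128 for LAPTM4B-labelled libraries. NPC2, which passes cholesterol to NPC1 in the membrane, had 95.6, 71.4 and 54.7 CPM in libraries GOLGA8N 1, GOLGA8N 2 and 23-GOLGA8N, and 63, 53.3 and 87.1 CPM in LAPTM4B 1, LAPTM4B 2 and 22-LAPTM4B, against 50.2 to 82.3 CPM with a median of 59 CPM in the others. One library of each label exceeded the others' range. The fitted log2 differences were 0.28 ± 0.211 for GOLGA8N-labelled and 0.15 ± 0.211 for LAPTM4B-labelled libraries.

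Of the 6 membrane proteins, 4 were above 0 in GOLGA8N-labelled libraries (median log2 difference 0.06) and 5 in LAPTM4B-labelled libraries (median 0.22), and 0 passed the test. CD63 is a tetraspanin of late endosomes and lysosomes (chromosome 12, 55725323 to 55729707, minus strand, GRCh38). It had 1221, 1042 and 861 CPM in libraries GOLGA8N 1, GOLGA8N 2 and 23-GOLGA8N, and 996, 938 and 893 CPM in LAPTM4B 1, LAPTM4B 2 and 22-LAPTM4B, against 822 to 1134 CPM with a median of 957 CPM in the others. GOLGA8N 1 was the highest library of the series, and the remaining labelled libraries lay inside the range of the others. In the fit its log2 differences were 0.14 ± 0.127 for GOLGA8N-labelled and -0.00 ± 0.128 for LAPTM4B-labelled libraries, and the first was at 0 without GOLGA8N 1. LAMP1, an abundant glycoprotein of the lysosomal membrane, had 172, 148 and 173 CPM in libraries GOLGA8N 1, GOLGA8N 2 and 23-GOLGA8N, and 160, 186 and 139 CPM in LAPTM4B 1, LAPTM4B 2 and 22-LAPTM4B, against 112 to 214 CPM with a median of 169 CPM in the others. All 6 labelled libraries lay inside that range, with log2 differences of 0.11 ± 0.179 for GOLGA8N-labelled and 0.08 ± 0.178 for LAPTM4B-labelled libraries.

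LAMP2, the partner glycoprotein that takes part in autophagy (chromosome X, 120427827 to 120469365, minus strand, GRCh38), had 59.8, 64.6 and 58.6 CPM in libraries GOLGA8N 1, GOLGA8N 2 and 23-GOLGA8N, and 71, 67.1 and 67.8 CPM in LAPTM4B 1, LAPTM4B 2 and 22-LAPTM4B, against 42.5 to 83.6 CPM with a median of 62.1 CPM in the others. The GOLGA8N-labelled and LAPTM4B-labelled libraries did not overlap each other, and both lay inside the range of the others. In the same direction, 4.52% of all genes tested separated these 2 sets. The log2 differences were 0.04 ± 0.186 for GOLGA8N-labelled and 0.21 ± 0.182 for LAPTM4B-labelled libraries. LAMP2 makes isoforms with different ends, of which LAMP2A serves chaperone-mediated autophagy. The transcript LAMP2-202, which encodes LAMP2B, took 86.1% of the gene's reads and LAMP2-201, which encodes LAMP2A, took 13.6%, while LAMP2-203, which encodes LAMP2C, had 0 reads. The share of LAMP2-201 averaged 13.4 ± 17.1% in GOLGA8N-labelled and 13.3 ± 7.6% in LAPTM4B-labelled libraries (SD, n = 3 each), against 12.7 ± 10.6% in the others (SD, n = 11). It ranged from 0 in GFP to 35.8% in 21-CTPS2, so the sets differed by far less than the libraries within them. These shares are the quantifier's division of 3′ reads.

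NPC1, which exports cholesterol from the lysosome, had 23.7, 16.1 and 12.4 CPM in libraries GOLGA8N 1, GOLGA8N 2 and 23-GOLGA8N, and 20.6, 25.2 and 30.5 CPM in LAPTM4B 1, LAPTM4B 2 and 22-LAPTM4B, against 10.4 to 25.8 CPM with a median of 20 CPM in the others. All LAPTM4B-labelled libraries were above that median, and 1 was above the range. Its log2 differences were -0.07 ± 0.334 for GOLGA8N-labelled and 0.47 ± 0.316 for LAPTM4B-labelled libraries (unadjusted p 0.144), the second being 0.30 without 22-LAPTM4B. SCARB2, which carries glucocerebrosidase to lysosomes, ran from 15.2 to 19.1 CPM in GOLGA8N-labelled and 16.2 to 21.5 CPM in LAPTM4B-labelled libraries, against 6.97 to 25.1 CPM in the others. MCOLN1, a calcium channel of the lysosomal membrane, ran from 1.51 to 2.29 CPM in GOLGA8N-labelled and 2.01 to 4.8 CPM in LAPTM4B-labelled libraries, against 0 to 8.58 CPM in the others, and its highest library was RFP.

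**Figure D4:**
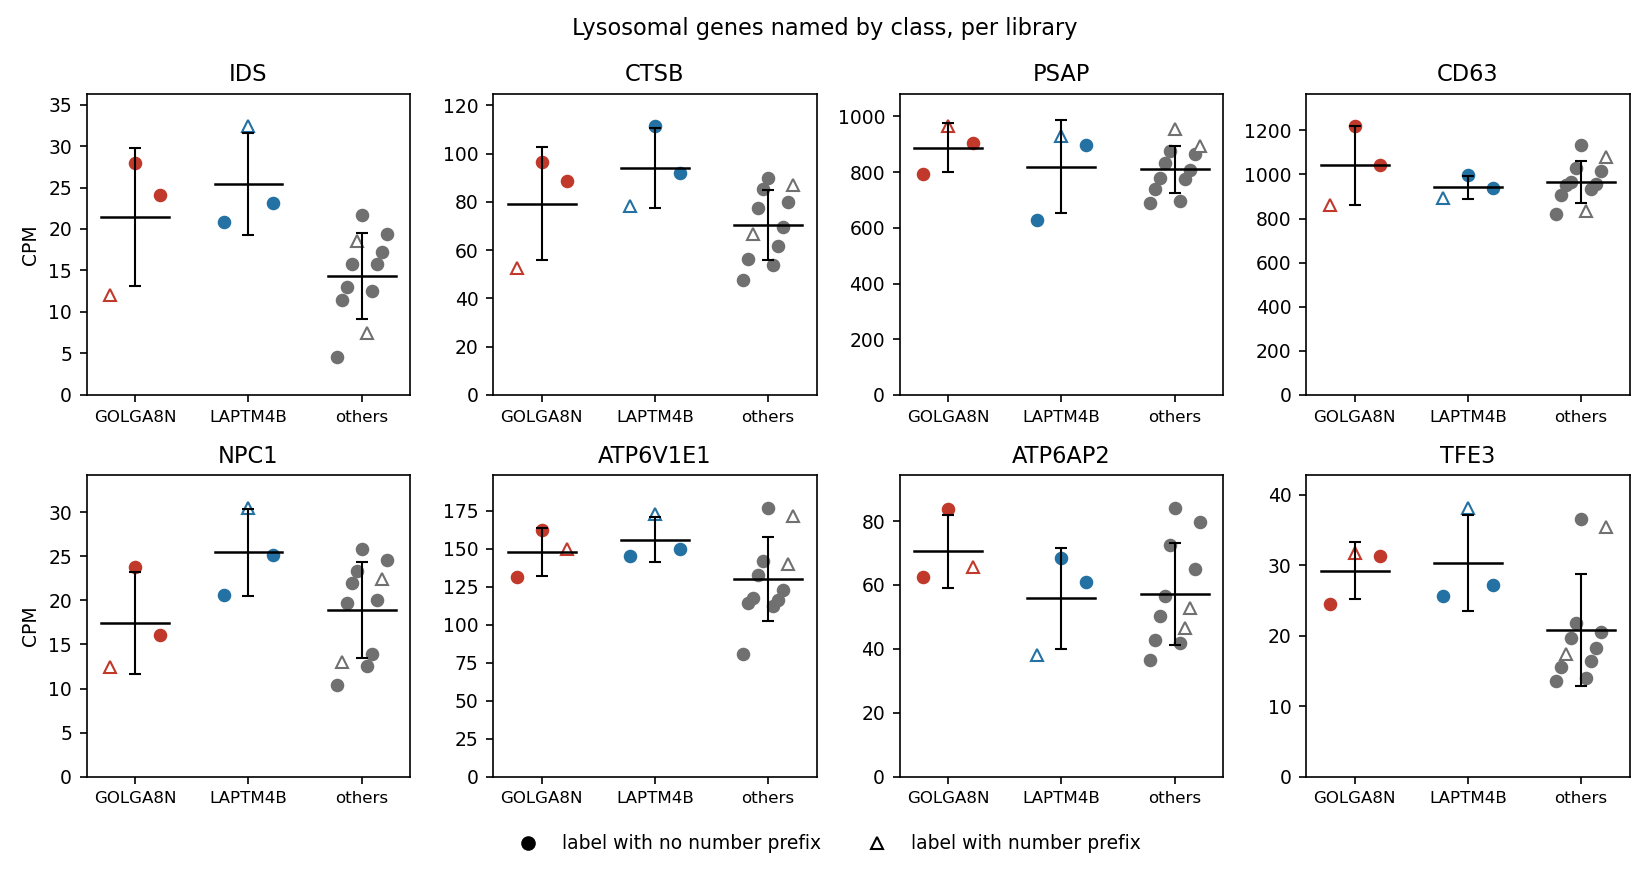
CPM per library of IDS, CTSB, PSAP, CD63, NPC1, ATP6V1E1, ATP6AP2 and TFE3, by label set; circles are unprefixed and open triangles prefixed labels, and bars the mean ± SD. The sets overlap in every panel; IDS reaches 28 CPM in GOLGA8N-labelled and 32.4 CPM in LAPTM4B-labelled libraries, against at most 21.7 CPM in the others.

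The proton pump has a membrane sector through which protons pass and a peripheral sector that splits ATP. Of its 9 genes, 5 were above 0 in GOLGA8N-labelled libraries (median log2 difference 0.04) and 4 in LAPTM4B-labelled libraries (median -0.01), and 0 passed the test. For all 9 the interval of 2 standard errors in GOLGA8N-labelled libraries stayed within -1 and 1. ATP6V0C, which forms the proton-carrying ring, had 371, 510 and 369 CPM in libraries GOLGA8N 1, GOLGA8N 2 and 23-GOLGA8N, and 333, 476 and 335 CPM in LAPTM4B 1, LAPTM4B 2 and 22-LAPTM4B, against 269 to 499 CPM with a median of 393 CPM in the others. The library titled 2 was the highest of each label, and the sets overlapped. The fitted log2 differences were 0.08 ± 0.164 for GOLGA8N-labelled and -0.05 ± 0.165 for LAPTM4B-labelled libraries. ATP6V1E1, a stalk subunit of the peripheral sector, had 131, 162 and 150 CPM in libraries GOLGA8N 1, GOLGA8N 2 and 23-GOLGA8N, and 145, 150 and 173 CPM in LAPTM4B 1, LAPTM4B 2 and 22-LAPTM4B, against 80.4 to 177 CPM with a median of 123 CPM in the others. All 6 labelled libraries were above the others' median and below their highest value. ATP6V1E1 was named for its low p in both comparisons, which share the other libraries, so this position partly follows from the choice. In the fit its log2 differences were 0.23 ± 0.169 for GOLGA8N-labelled and 0.31 ± 0.167 for LAPTM4B-labelled libraries (unadjusted p 0.0757).

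ATP6AP2, an accessory protein of the pump also known as the prorenin receptor, had 62.3, 83.7 and 65.8 CPM in libraries GOLGA8N 1, GOLGA8N 2 and 23-GOLGA8N, and 68.4, 61 and 38.2 CPM in LAPTM4B 1, LAPTM4B 2 and 22-LAPTM4B, against 36.4 to 84.2 CPM with a median of 52.6 CPM in the others. All labelled libraries lay inside that range, and its lowest value was GFP. The log2 differences were 0.33 ± 0.226 for GOLGA8N-labelled (unadjusted p 0.154), or 0.20 without GOLGA8N 2, and -0.01 ± 0.23 for LAPTM4B-labelled libraries. ATP6V1A, the catalytic subunit that splits ATP, had 24.6, 23.3 and 24.4 CPM in libraries GOLGA8N 1, GOLGA8N 2 and 23-GOLGA8N, and 21.6, 41.5 and 25.7 CPM in LAPTM4B 1, LAPTM4B 2 and 22-LAPTM4B, against 15.7 to 37 CPM with a median of 22.8 CPM in the others. LAPTM4B 2 alone exceeded the range, and without it the LAPTM4B difference came to 0.05. Its log2 differences were 0.06 ± 0.29 for GOLGA8N-labelled and 0.35 ± 0.281 for LAPTM4B-labelled libraries. The remaining subunits overlapped between sets: over all 17 libraries ATP6V0D1, which couples the sectors, ran from 30.9 to 55.2 CPM, and ATP6V0E1, a small membrane subunit, from 61.5 to 127 CPM. ATP6V1B2, the second subunit of the catalytic head, ran from 62.7 to 117 CPM, ATP6V1H, a regulatory subunit, from 3.64 to 27.8 CPM with the low end in GFP, and ATP6AP1, an accessory protein, from 97.9 to 200 CPM with the top in GFP.

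Of the 4 regulators and sorting receptors, 3 were above 0 in each label set (median log2 difference 0.12 for GOLGA8N-labelled and 0.32 for LAPTM4B-labelled libraries), and 0 passed the test. IGF2R, the large mannose 6-phosphate receptor, had 83.1, 48.5 and 75 CPM in libraries GOLGA8N 1, GOLGA8N 2 and 23-GOLGA8N, and 42.3, 73 and 72.9 CPM in LAPTM4B 1, LAPTM4B 2 and 22-LAPTM4B, against 43.2 to 97.6 CPM with a median of 55 CPM in the others. The sets overlapped, with log2 differences of 0.22 ± 0.233 for GOLGA8N-labelled and 0.08 ± 0.233 for LAPTM4B-labelled libraries. TFE3, a transcription factor for lysosomal genes (chromosome X, 49028726 to 49043486, minus strand, GRCh38), had 24.6, 31.3 and 31.7 CPM in libraries GOLGA8N 1, GOLGA8N 2 and 23-GOLGA8N, and 25.6, 27.2 and 38.2 CPM in LAPTM4B 1, LAPTM4B 2 and 22-LAPTM4B, against 13.5 to 36.6 CPM with a median of 18.2 CPM in the others. All 6 labelled libraries were above the others' median, where the highest were E7 and 20-ARSF. TFE3 was named for its low p in both comparisons, so this position partly follows from the choice. The fitted log2 differences were 0.50 ± 0.31 for GOLGA8N-labelled (unadjusted p 0.114) and 0.56 ± 0.305 for LAPTM4B-labelled libraries (unadjusted p 0.0731), the second being 0.34 without 22-LAPTM4B. TFEB and M6PR, the small mannose 6-phosphate receptor, are described with the label prefix.

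The genes whose promoters held CACGTG were set beside those without it. Of the 11 tested genes with the motif, 4 were above 0 in GOLGA8N-labelled libraries (median log2 difference -0.16) and 3 in LAPTM4B-labelled libraries (median -0.06). Of the 20 tested genes with a promoter sequence lacking it, 14 were above 0 in GOLGA8N-labelled libraries (median 0.09) and 11 in LAPTM4B-labelled libraries (median 0.07). The genes with the motif include the sparsely counted ARSB, GAA and MCOLN1. Their log2 differences were -1.26 ± 1.41, -1.10 ± 1.40 and -0.49 ± 1.17 (SE) in GOLGA8N-labelled libraries. In LAPTM4B-labelled libraries they were -0.88, -1.72 and 0.30. All these values are descriptions of chosen genes with no test.

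GOLGA8N-labelled libraries were also compared directly with LAPTM4B-labelled libraries, the test of whether the labels differ from each other. In edgeR's test 0 of 42 lysosomal genes passed, against 1 of 13133 genes tested (0.00761%), and DESeq2 and limma-voom called 0 of them. CTSL alone had an unadjusted p under 0.05 (p 0.0318, edgeR adjusted p 1.0), with a log2 difference of 0.58 ± 0.257 that came to 0.31 without GOLGA8N 2, and 2.79% of all genes did. LAMP2, with a log2 difference of -0.17 ± 0.232, was the sole lysosomal gene whose sets did not overlap in either direction. Of all genes tested, 3.89% were higher and 4.52% lower in GOLGA8N-labelled libraries without overlap. The log2 difference was above 0 for 21 and below 0 for 21 of the 42, with a median of -0.02 against -0.03 for all genes, and 26 of the 42 had an interval of 2 standard errors within -1 and 1.

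The label prefix was then tested, because it divides libraries of the same target gene and its meaning is not stated. The 4 prefixed libraries (20-ARSF, 21-CTPS2, 22-LAPTM4B and 23-GOLGA8N) were compared with the 13 unprefixed ones, with the label set as a term. In edgeR's test 0 of 42 lysosomal genes passed, against 16 of 13133 genes (0.122%). At an unadjusted p under 0.05 there were 4, CTSZ, TFEB, M6PR and PSAP, and 8.55% of all genes. The fitted log2 difference was above 0 for 17 and below 0 for 25, with a median of -0.05 against -0.04 for all genes. TFEB, higher, and CTSZ, lower, did not overlap between prefixed and unprefixed libraries, as 0.19% and 0.145% of all genes did in those directions. TFEB, M6PR and PSAP are given in detail here after their values were seen.

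CTSZ (ENSG00000101160, chromosome 20, 58995185 to 59007247, minus strand, GRCh38) had 122, 101, 120 and 85.1 CPM in 20-ARSF, 21-CTPS2, 22-LAPTM4B and 23-GOLGA8N, against 132 to 220 CPM with a mean of 166.1 ± 25.5 CPM in unprefixed libraries (SD, n = 13). Every prefixed library was below every unprefixed one. In the fit the log2 difference was -0.61 ± 0.155 (unadjusted p 0.000383, edgeR adjusted p 0.115), which did not pass. In the comparison by label, its log2 differences were -0.26 ± 0.21 for GOLGA8N-labelled and -0.06 ± 0.20 for LAPTM4B-labelled libraries. TFEB, a transcription factor for lysosomal genes (chromosome 6, 41683978 to 41736259, minus strand, GRCh38), had 11.5, 14.5, 13.9 and 11.5 CPM in the same 4 libraries, against 2.67 to 10.4 CPM with a mean of 5.73 ± 2.43 CPM in unprefixed libraries (SD, n = 13). Every prefixed library was above every unprefixed one, although the counts are small. Its log2 difference was 1.17 ± 0.44 (unadjusted p 0.012).

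M6PR had 39.9, 35.6, 25.7 and 28.5 CPM in 20-ARSF, 21-CTPS2, 22-LAPTM4B and 23-GOLGA8N, against 35.1 to 65.5 CPM in unprefixed libraries. The sets overlapped at their edges, with a log2 difference of -0.49 ± 0.206 (unadjusted p 0.0222). PSAP had 954, 895, 932 and 967 CPM in those 4 libraries, against 627 to 903 CPM in unprefixed ones. Only 21-CTPS2 fell within the unprefixed range, and the log2 difference was 0.25 ± 0.103 (unadjusted p 0.0228). The sources used here do not say what sets prefixed libraries apart in the experiment, and its part in these values was not tested.

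**Figure D5:**
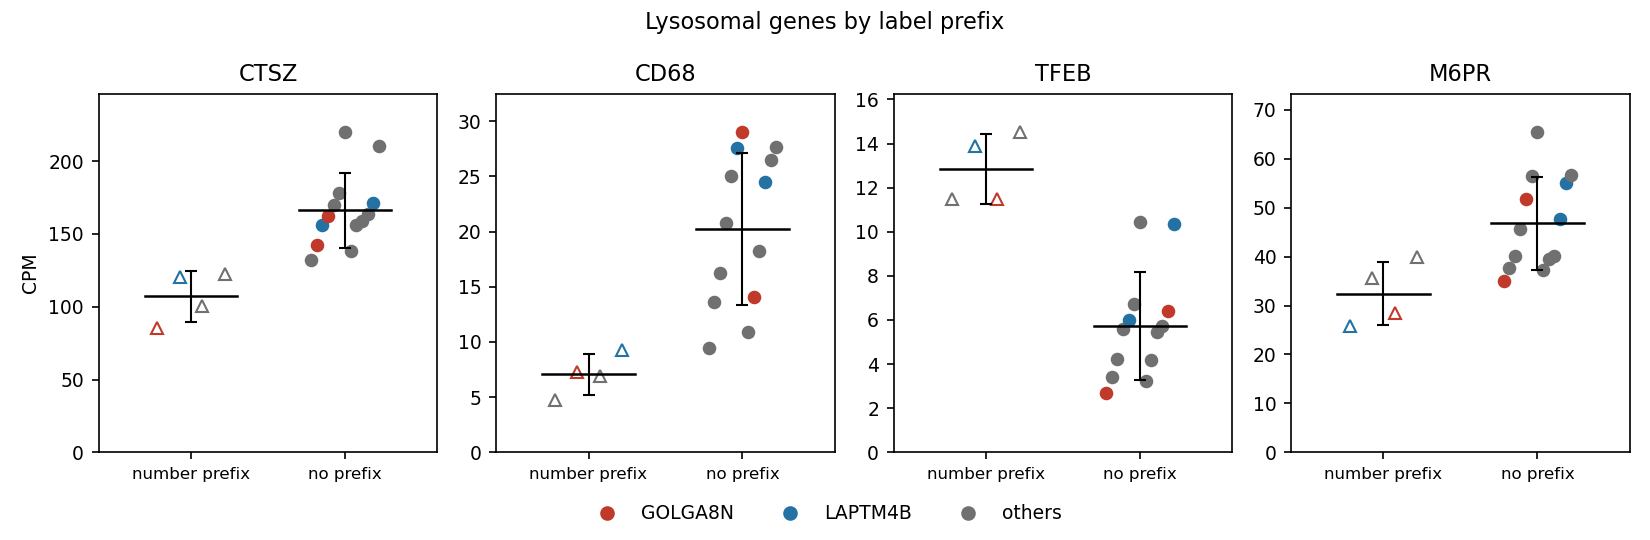
CPM per library of CTSZ, CD68 (another lysosomal membrane protein, outside the 44), TFEB and M6PR, prefixed labels (open triangles) left of unprefixed labels (circles), coloured by label set, with the mean ± SD as bars. Prefixed libraries lie below all unprefixed ones for CTSZ (85.1 to 122 against 132 to 220 CPM) and above them for TFEB (11.5 to 14.5 against 2.67 to 10.4 CPM), and CD68 is lower (4.72 to 9.29 against 9.44 to 29 CPM), all without passing adjustment in edgeR's test.

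In bands of mean CPM, the median variation of the lysosomal genes between libraries was similar to or lower than that of all genes tested. The bands are wide, and levels inside a band were not matched. Among genes averaging at least 50 CPM, the median coefficient of variation was 19.36% for 22 lysosomal genes against 19.66% for all 2485 genes tested at that level. Between 10 and 50 CPM it was 31.15% for 14 lysosomal genes against 37.2% for 4825 genes, and below 10 CPM it was 70.65% for 6 lysosomal genes against 85.42% for 5823 genes. The smallest coefficients belonged to CD63 (10.8%), PSAP (12%) and LAMP2 (13.6%), and the largest to GAA (140.4%), ARSB (118.2%) and MCOLN1 (87.7%). GAA, ARSB and MCOLN1 all exceeded the 85.42% median of their band. Among the 22 genes averaging at least 50 CPM, CTSL varied most, at 33.15%.

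The other genes of lysosomal function served as a wider list of 86, of which 72 were tested. In edgeR's test 0 of the 72 passed in any of the 4 comparisons. Above 0 were 37 in GOLGA8N-labelled libraries (median log2 difference 0.03, with 1 at an unadjusted p under 0.05) and 36 in LAPTM4B-labelled libraries (median -0.00, with 0). Between the labels 3 of the 72 were higher and 4 lower in GOLGA8N-labelled libraries without overlap, as 3.89% and 4.52% of all genes were, among them GRN and ABCB9. LAMTOR2, a part of the Ragulator complex that anchors nutrient signalling at the lysosome, had 85, 76.4 and 121 CPM in libraries GOLGA8N 1, GOLGA8N 2 and 23-GOLGA8N, and 91.4, 67 and 91.4 CPM in LAPTM4B 1, LAPTM4B 2 and 22-LAPTM4B, against 40.6 to 87.3 CPM with a median of 74.3 CPM in the others. The GOLGA8N-labelled libraries were all above that median, with a log2 difference of 0.40 ± 0.198 (unadjusted p 0.0491) that came to 0.19 without 23-GOLGA8N. ABCB9, a peptide transporter of the lysosomal membrane, had 12.5, 5.35 and 3.27 CPM in libraries GOLGA8N 1, GOLGA8N 2 and 23-GOLGA8N, and 22.9, 18.4 and 16.2 CPM in LAPTM4B 1, LAPTM4B 2 and 22-LAPTM4B, against 4.72 to 30.6 CPM with a median of 12.1 CPM in the others. Its GOLGA8N-labelled libraries lay below its LAPTM4B-labelled ones, with log2 differences of -0.94 ± 0.512 against the others and -1.43 ± 0.605 between the labels (unadjusted p 0.0243). The first came to -0.60 without 23-GOLGA8N and to -1.67 without GOLGA8N 1. RRAGA, a GTPase of nutrient signalling, had 27.2, 19.1 and 19.3 CPM in libraries GOLGA8N 1, GOLGA8N 2 and 23-GOLGA8N, and 25, 19.5 and 18.8 CPM in LAPTM4B 1, LAPTM4B 2 and 22-LAPTM4B, against 20.4 to 63.6 CPM with a median of 30 CPM in the others. All 6 labelled libraries were below that median, with a log2 difference of -0.56 ± 0.286 for LAPTM4B-labelled libraries (unadjusted p 0.0563 in edgeR's test). RRAGA was named for that low p, so the position of the LAPTM4B-labelled libraries partly follows from the choice. GRN, the lysosomal protein progranulin, had 102, 126 and 94.3 CPM in libraries GOLGA8N 1, GOLGA8N 2 and 23-GOLGA8N, and 79.7, 65 and 78.7 CPM in LAPTM4B 1, LAPTM4B 2 and 22-LAPTM4B, against 58.2 to 138 CPM with a median of 94.4 CPM in the others. Its GOLGA8N-labelled libraries lay above its LAPTM4B-labelled ones, and both lay within the range of the others. In the fit its log2 differences were -0.32 ± 0.188 for LAPTM4B-labelled libraries against the others (unadjusted p 0.0998) and 0.53 ± 0.232 between the labels (unadjusted p 0.0295).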

How the data were processed

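RNA of 17 libraries was profiled as 3′ tags primed with oligo-dT carrying 12-bp molecular identifiers, per the labels' protocols. The deposited tables list 228297 transcripts with estimated counts (expected counts) and TPM in Salmon's layout, as the authors' file headers show. Named in the submitters' processing notes are STAR 0.7.2, Salmon 0.7.2, featureCounts, UMI-tools, with GRCh38 and hg38 as builds. The sources used here do not give the strand setting or say whether reads sharing an identifier were collapsed.

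The deposited estimated counts were added up by gene, joining transcripts to GENCODE 29 by identifier (205336 matched), and unmatched transcripts, with 3.32% to 3.6% of reads, stayed out. CPM were computed from reads in genes. The sums, rounded to whole numbers, went into edgeR 4.0.16 under R 4.3.3 (TMM, filterByExpr, robust quasi-likelihood, Benjamini-Hochberg over all genes tested, threshold 0.05), all 17 libraries in 1 fit. Alternatives used DESeq2 1.42.0, limma 3.58.1 (voom, and log2 of summed TPM plus 1), other filters, scaling, reference libraries and left-out libraries. Floors of 3 reads cover counting error only.

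Members and lists were chosen with earlier results of these data known. Genes named for a low p tend to lie on 1 side of the others' median, so that position is no further evidence. Genes named in full were, in each class, the member with the highest mean CPM and the 2 (1 in classes of 4 or fewer) with the lowest p in each comparison with the others; the member with the lowest p in the other comparisons; any called member; and of other lists the 2 with the lowest p in each comparison with the others. On simulated counts for GOLGA8N against the others (12462 genes) the fit called 33 of 50 genes at an 8-fold change and 24 of 50 at 4-fold. It called 9 of 50 at 2-fold and 3 of 50 at 1.5-fold, and 8 of its 77 calls were false. The changed genes were drawn from all genes passing the filter. In the real fit the median standard error was 0.4766 for all genes tested and 0.2267 for the lysosomal genes. These shares therefore do not describe the lysosomal genes.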

Additional observations from a re-analysis of the deposited data

Results flagged for a closer look

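CTSL is listed because its GOLGA8N-labelled CPM lay above all the other libraries with unprefixed labels and below all of those with prefixed labels. The comparison of the label's effect between prefixed and unprefixed labels was chosen after its values were seen. On the log2 scale the prefixed effect minus the unprefixed effect was -1.42 ± 0.392, with an unadjusted p of 0.000955 and an edgeR adjusted p of 0.724, so it did not pass the correction. Within prefixed labels 23-GOLGA8N stood at 145 CPM against 192 and 200.4 CPM in 20-ARSF and 21-CTPS2, and within unprefixed labels GOLGA8N 1 and GOLGA8N 2 stood at 245 and 320 CPM against 89.9 to 216 CPM in 9 libraries. The prefixed side rests on 1 GOLGA8N-labelled library, so that library and the prefix cannot be told apart.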

How the results depend on the processing

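Genes called by edgeR in GOLGA8N against the other libraries numbered 3, against 1 with RLE size factors, 13 with DESeq2, 8 with no filter, 6 with unprefixed labels only, 5 with unmatched transcripts kept, and 1 to 5 leaving out each library in turn. Lysosomal genes called numbered 0, against 1 (CTSL) with unprefixed labels only. For LAPTM4B against the others the 0 genes became 5 with DESeq2 and 2 with no filter, and stayed 0 leaving out each library. For GOLGA8N against LAPTM4B the 1 gene became 2 with DESeq2, 0 with limma-voom, 5 with no filter, 0 with at least 10 reads in 6 libraries, 2 with unprefixed labels only, 2 with the prefix as a term, 3 with unmatched transcripts kept, and 0 to 2 leaving out each library. On the libraries titled 1 and 2, which share only a number, 2 genes were called with the replicate block and 2 without it, with 0 lysosomal genes in either; the differences of library 1 minus 2 correlated at r = 0.106 across 13133 genes. For the prefix, 16 genes became 0 without 21-CTPS2, 1 without 22-LAPTM4B, 6 without 23-GOLGA8N and 27 without GFP. Signs turned for CD63 in GOLGA8N against the others (-0.0010 to 0.27 leaving out each library, the lowest without GOLGA8N 1), for CTSL (-0.41 within prefixed labels), and for NPC2 in LAPTM4B against the others (-0.12 with unprefixed labels only, and -0.0932 to 0.313 leaving out each library, the lowest without 22-LAPTM4B); the cause was not tested. Without GOLGA8N 2, CTSL was at 0.40, and without 23-GOLGA8N at 0.92 (edgeR adjusted p 0.173). With Neg, GFP and RFP as the only comparison, 28 of 40 lysosomal genes were above 0 in each label set, with medians of 0.19 for GOLGA8N-labelled and 0.14 for LAPTM4B-labelled libraries, and 0 were called. The medians of all genes tested were 0.008 and 0.02. Both label sets were set against the same controls, among them the shallow GFP library, so their counts are not independent. The CTSL call with unprefixed labels, by alternatives chosen after seeing the data, held with DESeq2 (1.01, adjusted p 0.0105), limma-voom (1.06, adjusted p 0.00231), no filter (1.02, edgeR adjusted p 0.000939) and RLE size factors (1.01, edgeR adjusted p 0.0329). Depth limits GAA, ARSB and MCOLN1 most.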

Other observations

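CD68, a glycoprotein of lysosomal membranes that belongs to the wider list and was chosen after its values were seen, had lower values in prefixed libraries but did not pass the test over all 17. It averaged 7.06 ± 1.87 CPM in prefixed libraries (4.72 to 9.29 CPM, SD, n = 4) against 20.3 ± 6.89 CPM in unprefixed ones (9.44 to 29 CPM, SD, n = 13), and the highest prefixed library, 22-LAPTM4B, stood just below the lowest unprefixed one, E7. The log2 difference was -1.59 ± 0.36 with an edgeR adjusted p of 0.0592, and -1.62 with an adjusted p of 0.0302 without GFP, where 27 of 13093 genes were called (0.206%). Leaving out a prefixed library gave adjusted p of 0.117 without 20-ARSF, 0.335 without 21-CTPS2, 0.312 without 22-LAPTM4B and 0.21 without 23-GOLGA8N in edgeR's test, with log2 differences of -1.46 to -1.67. GFP, the shallowest library, had 10.9 CPM of CD68.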
